A study of Homo sapiens with 2 samples.

Results

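NEDD4L and SMAD2 are a pair of chromosome 18 genes that meet in transforming growth factor beta (TGF-beta) signalling, and both were listed with several binding sites of the transcription factor TCF4. Their peaks were the lines of the authors' peak table that name either gene. This gave 10 peaks for NEDD4L and 6 for SMAD2, which is 16 of the 661 distinct peaks in all. Both genes were chosen by their number of listed peaks in these data, so the peak counts and every value from the same comparison are given as descriptions, with no test. NEDD4L shared the highest count, 10, with 1 other of 275 genes, and 11 genes had more peaks than SMAD2.

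The data came from TMD8, an established cell line of the activated B cell-like (ABC) form of diffuse large B cell lymphoma. Per the labels the line lacks a copy number gain at TCF4 and carries a TCF4 construct under tetracycline control, and the cells were given 60 ng/ml doxycycline for 24 hours. There were 2 libraries, 1 of chromatin pulled down with a TCF4 antibody (ChIP) and 1 of whole cell extract (the input, IC in the table), both under the inducible TCF4 label. No library of uninduced cells was analysed here, so the peaks describe binding with the construct switched on, in 1 cell line. With 1 library of each kind there was no replicate, and no value below has a replicate error. The table holds no expression values, so neither the B cell identity nor the transcript level of either gene was checked.

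TGF-beta ligands act through receptor kinases that phosphorylate SMAD2 and its close relative SMAD3. These then join SMAD4 and regulate genes in the nucleus. NEDD4L is a ubiquitin ligase of the NEDD4 family, known also for removing the epithelial sodium channel from the cell surface, and it binds activated SMAD2 and SMAD3 and marks them for degradation. In normal B cells TGF-beta is known to restrain proliferation and to favour class switching to IgA. TCF4, also called E2-2, is an E protein that binds short DNA words of the form CANNTG, the E-box.

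The bases under the peaks were not used here, because they need the hg19 genome. What can be shown is the DNA just before the start sites of both genes, from RefSeq (GRCh38.p14). RefSeq listed 5 start windows for NEDD4L and 2 overlapping ones for SMAD2. The distances between the NEDD4L starts implied by the peak table met the spacing of 3 of the 5 windows to within 100 bp. These 3 include the first window, from which the spacing was measured and which meets it by construction. The start of NM_015277, from which 6 of the NEDD4L peaks were measured, matched no window. The first window below is the implied NEDD4L start that lay nearest to a peak, matched to transcript NM_001144970 by a spacing that differed by 75 bp. It covers chr18:58195155-58195404 on the + strand. The next is the outermost SMAD2 start, chr18:47930873-47931122 on the − strand, which could not be matched to a single transcript of the table. Each shows 250 bases before the start, 5′ to 3′, with every CANNTG in capitals.
NEDD4L: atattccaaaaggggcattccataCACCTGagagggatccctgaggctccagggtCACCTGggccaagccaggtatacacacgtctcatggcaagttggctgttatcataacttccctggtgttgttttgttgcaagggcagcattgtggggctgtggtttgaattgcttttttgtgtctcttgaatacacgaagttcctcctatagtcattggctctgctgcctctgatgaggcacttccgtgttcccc
SMAD2: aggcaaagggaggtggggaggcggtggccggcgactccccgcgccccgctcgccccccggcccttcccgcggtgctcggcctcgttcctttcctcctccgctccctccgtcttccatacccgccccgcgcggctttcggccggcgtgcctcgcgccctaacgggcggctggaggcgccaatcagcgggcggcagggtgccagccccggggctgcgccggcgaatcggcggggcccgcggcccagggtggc

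The NEDD4L window held 2 E-boxes, both of the form CACCTG, whose reverse complement is CAGGTG. The SMAD2 window held 0, as did the other SMAD2 window. Over the 5 NEDD4L windows the number of CANNTG ran from 1 to 3, and CACCTG or CAGGTG was present in 2 windows, this one among them, and absent from 3. Of 35116 such windows in RefSeq, 61.8% held at least 1 CANNTG, which reads the same way on both strands, and 17.5% held CACCTG or CAGGTG, which are among the CANNTG words. These matches describe the letters in the windows. No listed peak of either gene had its centre within 2000 bp of a start implied by the peak table, and no listed peak reached the NEDD4L window.

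NEDD4L had all of its 10 peaks inside the gene, and SMAD2 had 1 of 6 inside and the other 5 beyond its 3′ end. Of all listed peaks, 52.0% lay within a gene, 23.4% upstream and 24.5% downstream. Of the 31 genes with at least 5 peaks, 5 had every peak inside, and among these NEDD4L had the most. SMAD2 was 1 of 2 genes of the 31 with at least 5 downstream peaks. Both genes were marked Up in the authors' signature, as were all 37 genes named on chromosome 18. Up was the common mark, with 229 of all 275 named genes Up and 46 Down. The sources used here do not give the origin of that signature.

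The fold is ChIP reads over input reads times the library scaling of 1.31, and its exact (Clopper-Pearson) 95% interval covers counting error of independent reads only. The 10 peaks of NEDD4L held 1405 ChIP reads against 235 input reads, or a pooled fold of 7.83 (6.81 to 9.03). The 6 peaks of SMAD2 held 562 ChIP reads against 132 input reads, or a pooled fold of 5.58 (4.60 to 6.79). These intervals did not overlap, but without the NEDD4L peak of most ChIP reads that gene stood at 7.06 (6.09 to 8.20), which overlaps the SMAD2 interval. All 661 peaks pooled gave 7.45 (7.31 to 7.59). The median fold per peak was 7.36 at NEDD4L, 5.68 at SMAD2 and 6.36 over all peaks.

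**Figure D1:**
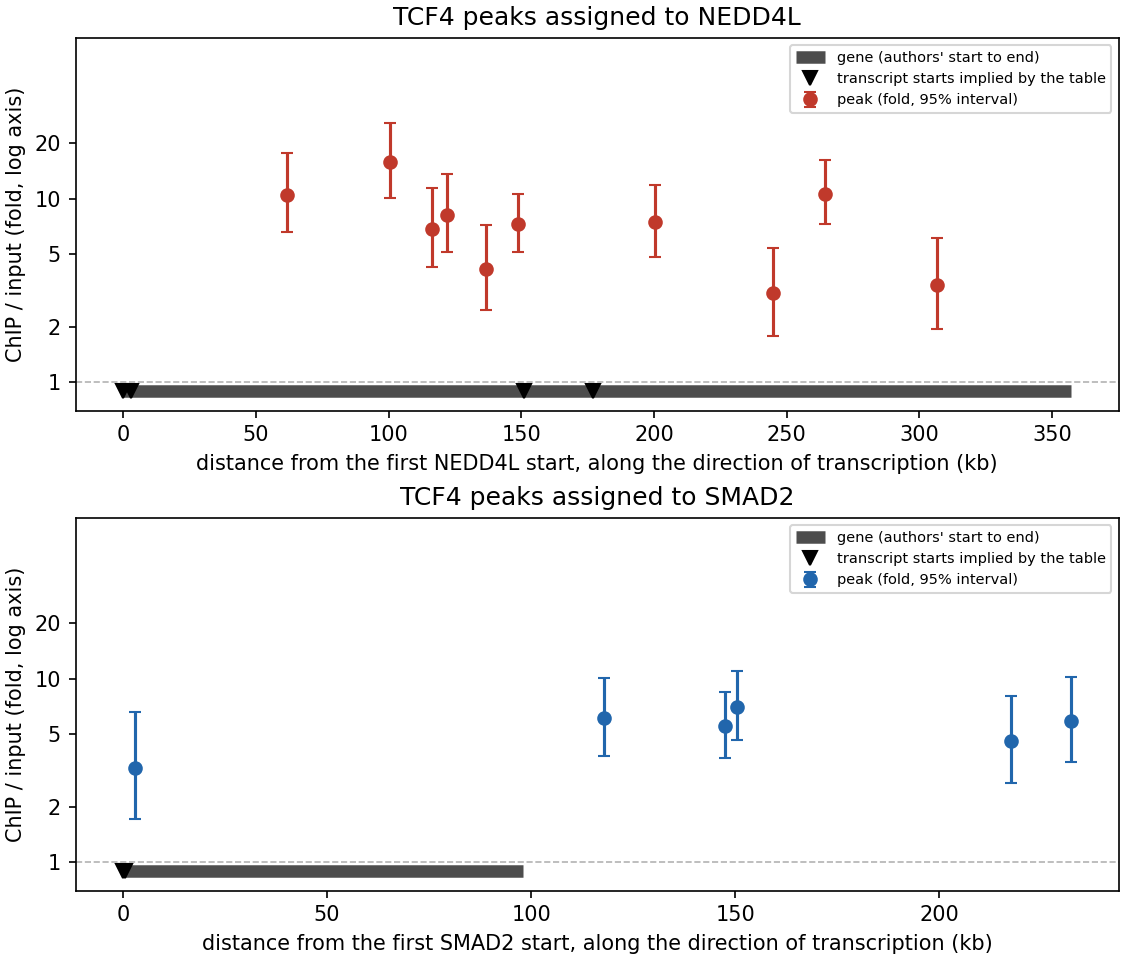
Fold of ChIP over input (log axis, with exact 95% intervals of counting error) for each peak against its distance from the first start of the gene in kb, with NEDD4L above and SMAD2 below. The grey bar is the gene and the triangles are the transcript starts implied by the table: all 10 NEDD4L peaks lie over the bar, and 5 of 6 SMAD2 peaks lie past its end.

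The NEDD4L peaks are numbered here from the 5′ end of the gene. The first, on chromosome 18 from 55772976 to 55773901 (hg19, as are all peak positions), held 160 ChIP reads against 20 input reads, or a fold of 10.5 (6.56 to 17.6). It lay 61.8 kb into the gene, and the stretch before it had no listed peak. The second, from 55811801 to 55812551, was the strongest of the 16, with 252 ChIP reads against 21 input reads and a fold of 15.7 (10.06 to 25.8). It ranked 29 of 661 by the authors' normalized log2 ratio. The third and the fourth formed the closest pair of the gene, 4640 bp apart. The third, from 55827917 to 55828361, held 109 ChIP reads and 21 input reads, and the fourth, from 55833001 to 55833976, held 131 and 21. At equal input the fourth, wider peak had a fold of 8.17 (5.13 to 13.6) and the third 6.80 (4.23 to 11.4), with intervals that overlapped widely.

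The middle of NEDD4L held a weak peak, then a pair of moderate ones. The fifth peak, from 55848014 to 55848331, was the narrowest of the 16 at 317 bp and held 63 ChIP reads against 20 input reads, or a fold of 4.13 (2.46 to 7.20). The sixth, from 55860108 to 55860942, held 206 ChIP reads and also the most input of the 16 peaks, 37 reads, so that its fold was 7.29 (5.12 to 10.6). The seventh, from 55911895 to 55912387, held 142 ChIP reads against 25 input reads and a fold of 7.44 (4.84 to 11.9). Between the sixth and the seventh lay the longest gap of the gene, 51.0 kb.

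Toward the 3′ end strong and weak peaks alternated. The eighth peak, from 55956326 to 55956851, held 49 ChIP reads and 21 input reads and had the lowest fold of the 16, 3.06 (1.80 to 5.36). The ninth, from 55975438 to 55976256, lay 18.6 kb further on and held 244 ChIP reads against 30 input reads, or a fold of 10.7 (7.27 to 16.1). The intervals of these neighbours did not overlap. The tenth, from 56018101 to 56018527, had 49 ChIP reads against 19 input reads, or a fold of 3.38 (1.95 to 6.07), and lay 50.4 kb before the gene end. The eighth and the tenth were the NEDD4L peaks whose interval reached below 2.

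The sixth peak lay close to a start that the authors' distance did not use. The table measured each peak from 1 transcript, and for the sixth it gave 149 kb to the start of NM_015277. The table's own distances for the eighth peak place the start of NM_001144970 151 kb after that of NM_015277. The centre of the sixth peak then lay 2.15 kb before this inner start, with an uncertainty of 55 bp from the way distances were deposited. This is the start whose window with 2 CACCTG words is printed above, and those words lie outside the peak. Over the 10 peaks, the median distance was 119 kb as deposited and 42.5 kb to the nearest of the 4 implied starts. As deposited 0 peaks lay within 50 kb of a start, and by the nearest implied start 5 did. In the promoter class of the authors, which reaches 2000 bp, NEDD4L had 0 peaks by either distance, against 5.45% of all peaks. RefSeq starts of NEDD4L that met no implied start were left out of both distances. These starts lay 102094 and 208290 bp after the start matched to NM_001144964, and the window of the former held 3 CACCTG or CAGGTG words. The start of NM_001144964 lay 2.805 kb after that of NM_015277, and the second peak lay 100.6 kb after that of NM_015277. By these spacings the second peak, the strongest, lay less than 5000 bp before the former of the left-out starts. With both starts counted, the median distance would be below 42.5 kb and more than 5 peaks would lie within 50 kb of a start.

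**Figure D2:**
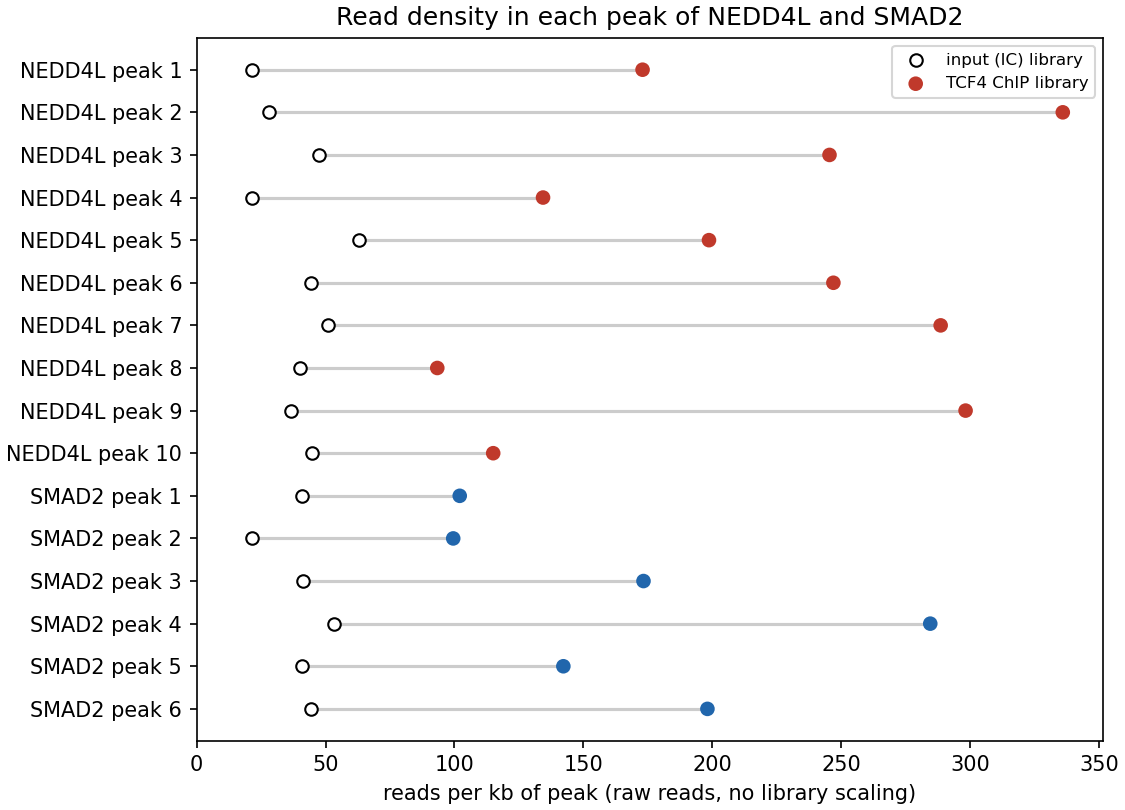
Raw reads per kb of peak width in the input (open circles) and the TCF4 ChIP library (filled circles, NEDD4L red and SMAD2 blue), 1 line per peak, numbered from the 5′ end of each gene. NEDD4L peak 2 reaches 336 ChIP reads per kb, NEDD4L peak 5 has the highest input density at 63.1, and SMAD2 peak 2 and NEDD4L peak 4 have the lowest at 21.5.

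SMAD2 is transcribed toward lower coordinates, and its peaks are numbered in that direction. The first, from 45454351 to 45454694, was the only one inside the gene and the weakest, with 35 ChIP reads against 14 input reads and a fold of 3.27 (1.72 to 6.59). It lay 2961 bp after the start by the authors' measure and 2.45 kb after the nearer start implied by the other SMAD2 peaks, outside the authors' promoter class by either measure. Its interval was the only one at SMAD2 to reach below 2. No further peak was listed over the remaining 95.1 kb of the gene.

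The other 5 SMAD2 peaks lay 20.01 to 134 kb past the gene end, and the name SMAD2 is the authors' assignment. The second peak, from 45339101 to 45340126, was the widest of the 16 at 1025 bp and held 102 ChIP reads against 22 input reads, or a fold of 6.07 (3.80 to 10.1). Its ChIP density, 99.5 reads per kb, was near the lowest of the table, 87.1, and its fold came with a low input density of 21.5 reads per kb. The third, from 45309576 to 45310326, held 130 ChIP reads against 31 input reads, or a fold of 5.49 (3.69 to 8.41). The fourth, from 45306906 to 45307412, lay 2164 bp from the third and was the strongest SMAD2 peak, with 144 ChIP reads against 27 input reads and a fold of 6.98 (4.61 to 11.0). This pair was the closest spacing at either gene.

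The last SMAD2 peaks were farthest from the gene. The fifth, from 45239637 to 45240101, held 66 ChIP reads against 19 input reads, or a fold of 4.55 (2.70 to 8.03), and lay 120 kb past the gene end. The sixth, from 45224901 to 45225330, held 85 ChIP reads against 19 input reads, or a fold of 5.86 (3.53 to 10.2), and lay 134 kb past it. Downstream peaks of the whole table had a median distance to the gene end of 22.2 kb, and 20 of 162 lay over 100 kb away, these 2 among them. All 6 SMAD2 intervals overlapped, and the order of these peaks by fold was not tested. In RefSeq gene order, the genes on the 3′ side of SMAD2 include the non-coding RNA gene LOC105372100, the pseudogene TPMTP1, and MIR4527 with its host gene MIR4527HG, before the protein-coding gene SKOR2. None of these 5 is named by the peak table, and a gene that the table does not name cannot be called unbound.

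NEDD4L peaks were more uneven than those of SMAD2. The highest fold was 5.14 times the lowest at NEDD4L and 2.13 times at SMAD2, beside a median of 2.62 over the 31 genes with at least 5 peaks. NEDD4L ranked 4 and SMAD2 21 of the 31 in this spread. More peaks give more room for extremes, and no test of the difference was made. At NEDD4L 8 of 10 peaks and at SMAD2 5 of 6 had a 95% interval wholly above 2-fold, beside 85.5% of all peaks. With a 99% interval it was again 8 and 5, beside 79.7% of all peaks, and without the library scaling it was 7 and 5, beside 72.9%. A fold of at least 5 was reached by 7 of 10 and 4 of 6, beside 68.8% of all peaks. These counts are near the background shares. The score, the authors' normalized log2 ratio, was at or above the median of the table in 7 NEDD4L peaks and 1 SMAD2 peak, and in its upper quartile in 3 and 0.

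**Figure D3:**
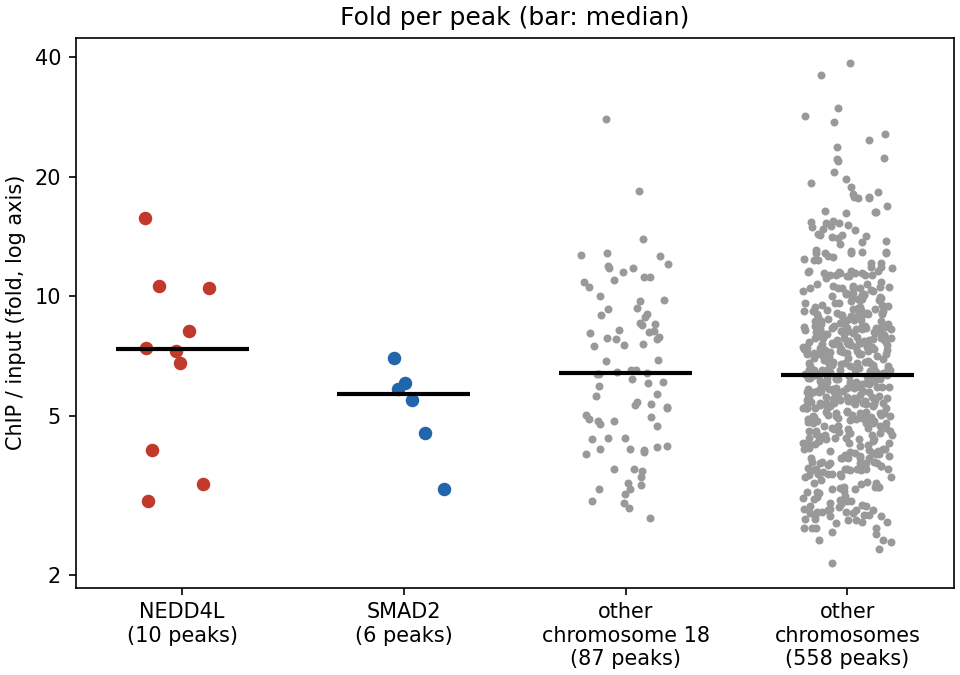
Fold of ChIP over input per peak (log axis) for NEDD4L, SMAD2, the other 87 peaks on chromosome 18 and the 558 peaks on other chromosomes, with a bar at the median. The medians are 7.36, 5.68, 6.42 and 6.34, and SMAD2 has no peak above 6.98.

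Wider peaks tended to be the stronger ones at NEDD4L. Its 5 wider peaks, of 750 to 975 bp, had folds of 7.29 to 15.7, and its 5 narrower ones, of 317 to 525 bp, had 3.06 to 7.44. At SMAD2 the 3 wider peaks, of 506 to 1025 bp, had 5.49 to 6.98 and the 3 narrower ones, of 343 to 464 bp, had 3.27 to 5.86. The authors drew the peak borders from the same ChIP reads, so width and fold are not independent measures. The apex, the highest point of a peak, lay between 23.9% and 67.1% of the width from the lower border at NEDD4L and between 34.6% and 57.1% at SMAD2.

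Median input per length was higher at both genes than over the table. Input reads per peak ran from 19 to 37 at NEDD4L and from 14 to 31 at SMAD2, beside a median of 17 over all peaks. Per kb of peak, 7 of 10 NEDD4L and 5 of 6 SMAD2 peaks were above the median of 31.9 reads over all peaks, and NEDD4L peaks 1, 2 and 4 and SMAD2 peak 2 were below it. The median input per kb was 42.2 reads at NEDD4L and 41.1 at SMAD2. It was 34.3 over the other chromosome 18 peaks and 31.2 on other chromosomes. Within the members' range of widths it was 34.2 and 30.5. Median ChIP reads per kb were 222 at NEDD4L and 158 at SMAD2, beside 159 over the other chromosome 18 peaks and 138 on other chromosomes. The part of DNA copy number or open chromatin in these input values was not tested, and no copy number data of chromosome 18 were analysed here.

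**Figure D4:**
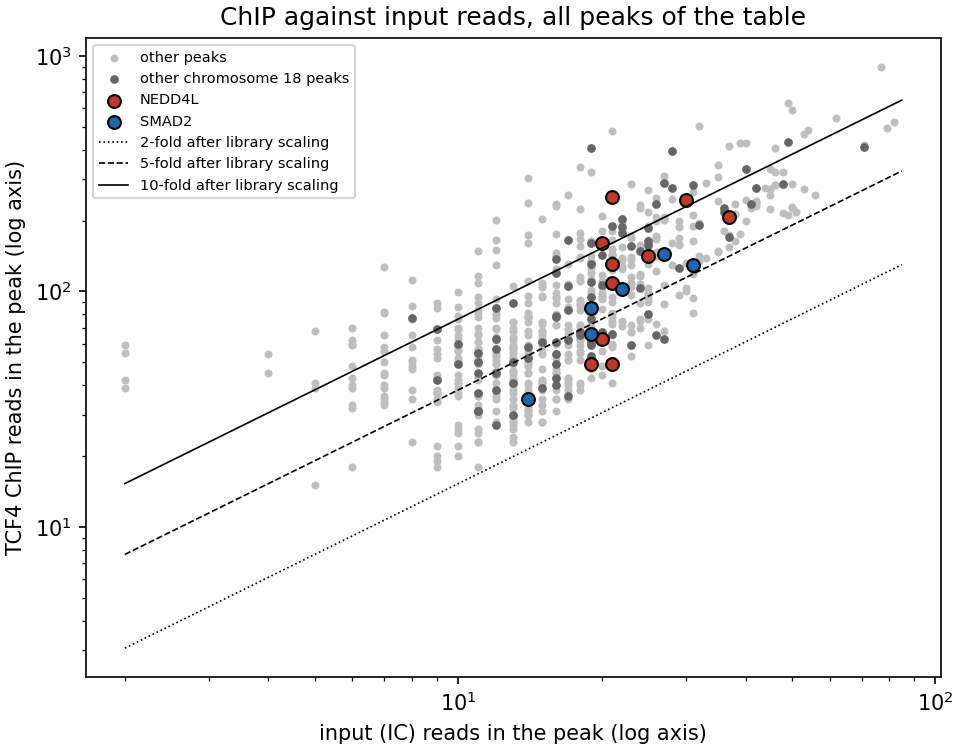
ChIP reads against input reads in every peak (both axes log), with NEDD4L in red, SMAD2 in blue, other chromosome 18 peaks dark grey and the rest light grey, and lines at 2, 5 and 10-fold after library scaling. NEDD4L peaks span 49 to 252 ChIP reads at 19 to 37 input reads, and SMAD2 peaks span 35 to 144 at 14 to 31.

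The NEDD4L peaks were closely spaced over a long gene. They spanned 246 kb of a transcript of 357 kb, with gaps of 4.64 to 51.0 kb and a median of 18.6 kb, the fifth shortest median of the 31 genes, whose own median was 31.5 kb. Counted per length, NEDD4L had 2.80 inner peaks per 100 kb of its longest transcript, rank 12 of the 28 genes with such a value, whose median was 2.30. The SMAD2 peaks spanned 230 kb with a median gap of 28.8 kb, and the gap from the inner peak to the next was 114 kb. Joining peaks at most 10 kb apart gave 9 groups at NEDD4L and 5 at SMAD2, with 1 joined pair at each.

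The genes with at least 5 peaks whose median score was nearest to that of NEDD4L (2.84) were COL6A1, a collagen chain gene, at 2.88, PMAIP1, which encodes the pro-apoptotic protein NOXA, at 2.80, and TRAK1, a mitochondrial transport adaptor gene, at 2.79. Nearest to SMAD2 (2.46) were BCL11A, a lymphoid transcription factor gene, at 2.46, FOXP1, a forkhead factor gene, at 2.47 and ARHGAP24, a gene of a GTPase-activating protein, at 2.49. Scores of 2 libraries are compared here, and the likeness says nothing about shared function.

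Of 67 genes in 5 lists on TGF-beta signalling and NEDD4L, the table named 4. These include both members, which are in the lists because the table names them. Of the other 65 genes, 2 (3.08%) were named, beside 1.34% of all 20056 protein-coding genes in RefSeq, and nothing is read from so small a count. None of 18 ligands and receptors was named. Of 16 SMADs and partners, SMAD2 and SMAD4 were. SMAD4, the shared partner of receptor-activated SMADs, had 1 peak on chromosome 18 from 48633072 to 48633552, downstream of the gene, with 63 ChIP reads against 27 input reads and a fold of 3.06 (1.92 to 4.99). SMAD3, the other SMAD that TGF-beta receptors phosphorylate, and SMAD7, the inhibitory SMAD, were not named.

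Among 11 NEDD4 family ligases and adaptors, NEDD4L alone was named. Besides SMAD2, itself a substrate and counted with the SMADs, none of 12 further substrates and regulators of NEDD4L was, a list that holds the epithelial sodium channel genes and SGK1, the kinase that restrains NEDD4L. Of 12 TGF-beta target genes, BCL2L11, the gene of the cell death protein BIM, was named. It is marked Up and had 3 peaks on chromosome 2 with folds from 8.06 (5.88 to 11.3) to 14.3 (10.3 to 20.4), each above the pooled fold of either member. The table is limited to signature genes, so these counts describe which genes it lists.

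No other gene named by the table lay among the peaks of either member. The nearest named neighbours of NEDD4L were NARS, an asparaginyl-tRNA synthetase gene, 483 kb to the lower side, and ZNF532, a zinc finger gene, 595 kb to the higher side. The NARS peak had 76 ChIP reads against 19 input reads, or a fold of 5.24 (3.14 to 9.17), and unlike any NEDD4L peak it fell in the promoter class. The ZNF532 peak had 80 and 25 reads, a fold of 4.19 (2.65 to 6.86). Around SMAD2 the table was sparser: the nearest peak of PIK3C3, a lipid kinase gene, lay 5601 kb to the lower side, and that of ACAA2, a mitochondrial thiolase gene, 1769 kb to the higher side. Their folds were 4.13 (2.17 to 8.40) and 3.36 (2.04 to 5.70). The peaks of NEDD4L and SMAD2 were 10.3 Mb apart at their closest.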

How the data were processed

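The submitters' processing notes name BWA, GATK and hg19 without versions or roles. The sources used here do not give the peak caller. Per the file headers, the authors deposited, per peak, counts of ChIP and IC reads as whole numbers, log2 ratios, a read density (signal) and −log10 p-values, and only for peaks at signature genes. IC was taken as the input, the only other library. The deposited log2 ratio was log2 of ChIP over input reads with 1 added to each, and the normalized one was 0.39 higher in the table, a scaling of 1.31-fold. The authors' density signal was proportional to reads over length and was recomputed as reads per kb. The −log10 p-values were not used. Per the labels, foreign chromatin was added for normalization; the sources used here do not give whether the scaling used it.

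The table's 662 lines held 661 distinct intervals. Folds had no pseudocount. Their intervals (scipy 1.17.1) were tried on simulated independent read counts with set folds and no peak calling. How well they cover for peaks listed for their ChIP reads was not tested. Each peak's start site was rebuilt from its deposited distance. Named were all peaks of both genes, members of 5 gene lists, the 3 genes of at least 5 peaks nearest in median score to each member, and the nearest named genes. Members and lists were chosen with earlier results of these data known. Alternatives changed the score limit, scaling, pseudocount, confidence level, joining gap and promoter window. No test was made, as there are no replicates. All 275 gene names matched RefSeq symbols or older names.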

Additional observations from a re-analysis of the deposited data

How the results depend on the processing

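Of 28 other settings, 17 left a value within 1.5 times for a count or within the counting interval for a fold, and 11 moved it further. The 17 include promoter counts that stayed at 0, and with 0 peaks within 2000 bp a window of 1000 bp could give nothing else. A score limit at the upper quartile of the table left 3 NEDD4L and 0 SMAD2 peaks, and a limit at the median left 1 SMAD2 peak, by construction. That median limit gave pooled folds of 9.31 at NEDD4L and 6.98 at SMAD2, and leaving out the library scaling gave 5.98 and 4.26, as dividing by 1.31 must. Joining peaks up to 20 kb apart gave 5 groups at NEDD4L. A promoter window of 5000 bp held 1 SMAD2 peak by the authors' start and 1 at each gene by the nearest implied start, a measure chosen after the data were seen. Depth limits the weakest peaks most, such as SMAD2 peak 1 with 35 ChIP and 14 input reads. No paired analysis was possible because each kind of library was made once.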
